A study of Homo sapiens with 6 samples.

Results

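The 10 genes described here encode Eph receptors and ephrins and were taken from the 26255 genes in the RNA-seq table by their gene symbols. They comprised 4 receptors (EPHA2, EPHA4, EPHB2 and EPHB4) and 6 ligands (EFNA1, EFNA3, EFNA4, EFNA5, EFNB1 and EFNB2). The experiment compared 3 libraries of NCI-H1299 cells, a human lung cancer line, that carried a pSilencer2.1-U6-neo control shRNA (shControl) with 3 libraries of the same line carrying an Ephexin1 shRNA in that vector (shEphexin1). Both groups were grown in RPMI-1640 medium with serum and antibiotics, and all 6 libraries were made from total RNA. The methods of the study name a hygro version of this vector, and the sample labels were followed here. By those methods, control and knockdown cells were both selected in hygromycin as stable transfectants, and the knockdown cells are called clones. The column names of the 3 shEphexin1 libraries share one stem. Nothing in the sources says that they came from separate clones or cultures, so the p-values measure only the spread between these samples, which may be technical.

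Eph receptors are the largest family of receptor tyrosine kinases, and their ephrin ligands are themselves bound to the membrane of neighbouring cells. A-type ephrins are held by a lipid anchor and B-type ephrins span the membrane, so that contact between cells can signal into both of them. Activated EphA receptors pass the signal to ephexins, exchange factors for small GTPases that control the actin cytoskeleton, and Ephexin1 (gene symbol NGEF) was the founding member of that family. In epithelial tumours, EPHA2 is among the most studied of these receptors. The question for these genes was whether the receptors and ligands that lie upstream of Ephexin1 differed in mRNA level when Ephexin1 was targeted.

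The values are FPKM, which count sequenced fragments relative to transcript length and library size, and no read counts were used here. From the smallest values above 0, 1 fragment per kilobase of transcript was worth between 0.0762 and 0.122 FPKM depending on the library, which gave a rough estimate of the number of fragments behind each value. Replicate 2 of both groups had the opposite relation to GC content from replicates 1 and 3. In those 2 libraries the deviation of a gene from its group mean ran against its GC content (Spearman correlation of -0.709 in shControl and -0.777 in shEphexin1, across 14259 genes, which are not independent), whereas the correlation lay between 0.347 and 0.683 in the other 4. Deviations sum to 0 within a group, so a negative correlation in 1 library goes with positive ones elsewhere. Replicate 3 lay about as far out on the positive side (0.655 in shControl and 0.683 in shEphexin1). These values therefore cannot show that replicate 2 alone deviated. Member genes with GC-rich transcripts, such as EPHA2 and EPHB4, were listed lower in replicate 2 of both groups, and the larger differences are also given with a term for replicate 2 in the fit or from replicates 1 and 3 alone. NGEF itself measured 13.3, 11.7 and 16.4 FPKM in shControl replicates 1, 2 and 3 against 9.81, 8.25 and 10.5 FPKM with shEphexin1, a log2 fold change of -0.53 that did not pass the limma test (adjusted p = 0.103; 0.0338 from replicates 1 and 3 alone). With a term for replicate 2 NGEF passed at less than 2-fold (limma adjusted p = 0.00572), as did 21.7% of all genes tested at any fold. It also passed after a correction for GC content and length, chosen with the data already seen (0.00086). There 25.7% of all genes with a GC value passed. The log2 ratios of NGEF within replicates 1, 2 and 3 were -0.43, -0.5 and -0.64. These values are mRNA levels. The study reports that it checked its stable knockdown cells, H1299 among them, for Ephexin1 protein by western blot. VIM was at 1980 to 2670 FPKM and KRT18 at 36.3 to 109 FPKM, while CDH1 and NKX2-1 were listed at 0 in all 6 libraries, as were the leukocyte genes PTPRC and CD3E. KRT18 and its partner KRT8 were lower in shEphexin1 (log2 differences of -0.94 and -1.07, limma adjusted p = 0.0439 and 0.0304). EPCAM, another epithelial marker, went the other way near the floor (log2 difference 0.97, limma adjusted p = 0.175). It was at 0.0565, 0.0663 and 0 FPKM with shControl and at 0.108, 0.22 and 0.192 FPKM with shEphexin1. The part of these marker differences in the results was not tested. Of the 9 markers of lung epithelium and of H1299 cells, 5 were tested and 0 called, and of 9 markers of other cell types 2 were tested (COL1A1 and DCN) and 0 called, with 3 and 1 at a limma p under 0.05 before adjustment, beside 23.3% of all genes tested.

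EPHA2, the main receptor for ephrin-A1, was the most abundant Eph receptor mRNA in every library. It measured 68.6, 49.6 and 74.5 FPKM in shControl replicates 1, 2 and 3, and 95.6, 67.6 and 108 FPKM in the same replicates of shEphexin1. The groups overlapped because shEphexin1 replicate 2 lay below shControl replicates 1 and 3, but within each replicate number the shEphexin1 library was higher, by 0.48, 0.45 and 0.53 on the log2 scale. The group means were 64.2 ± 13 and 90.3 ± 20.6 FPKM (SD, n = 3), a ratio of 1.41. On the log2(FPKM + 0.1) scale the difference was 0.49 (SE 0.215, 95% interval -0.02 to 0.99), and limma did not call it over all 16020 genes tested (adjusted p = 0.23). With a term for replicate 2 the size was the same and the limma adjusted p was 0.00179, and from replicates 1 and 3 alone it was 0.51 with an adjusted p of 0.0153, so EPHA2 passed the threshold of 0.025 in those fits without reaching a 2-fold difference. Of all genes tested, 21.7% passed it at any fold with the term and 10.6% from replicates 1 and 3 alone. By the rough estimate above, between 2031 and 3504 fragments stood behind each EPHA2 value, the most of any of the 10 genes. In bulk RNA, more cells that express a gene and more RNA per cell cannot be told apart.

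EPHB4, a receptor for ephrin-B2, came second among the receptors. Its levels were 30.4, 22 and 34.2 FPKM with shControl and 36.4, 25.6 and 36.8 FPKM with shEphexin1. The groups overlapped and replicate 2 was again the lowest library on both sides. The log2 difference was 0.19 (SE 0.209, 95% interval -0.3 to 0.68, limma adjusted p = 0.643), with means of 28.9 ± 6.26 and 32.9 ± 6.39 FPKM (SD, n = 3). With a term for replicate 2 its adjusted p was 0.0605, and after loess correction for GC content and length within libraries the difference was 0.05, so no change of EPHB4 was detected under any of these fits.

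EPHB2, which binds B-type ephrins, was at 2.77, 2.24 and 3.19 FPKM with shControl and at 2.3, 2.18 and 2.52 FPKM with shEphexin1. The 2 groups overlapped. Its log2 difference of -0.21 (SE 0.177, 95% interval -0.63 to 0.2) had a limma adjusted p of 0.539, and from replicates 1 and 3 alone it was -0.30 with an adjusted p of 0.265. After the correction for GC content and length it was -0.39 with an adjusted p of 0.0446, which also missed the threshold.

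EPHA4, a receptor that binds both ephrin classes, was barely detected. It was listed at 0.0264, 0 and 0.0159 FPKM with shControl and at 0 in all 3 shEphexin1 libraries. By the rough estimate these values correspond to 1.8 fragments at most in any library. EPHA4 did not pass the filter of 0.1 FPKM in at least 3 of the 6 libraries, so 9 of the 10 genes were tested, and no difference in EPHA4 was detectable at this depth.

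**Figure D1:**
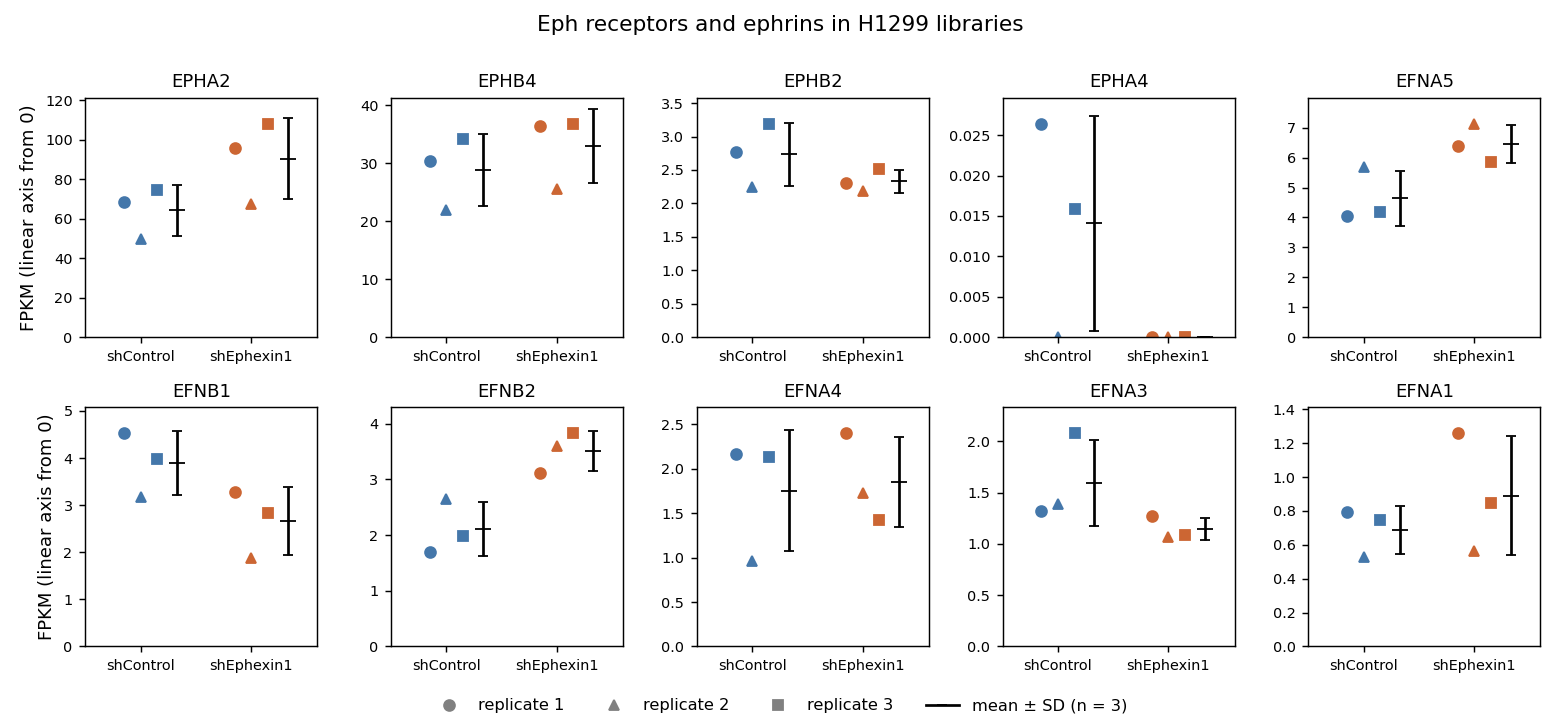
Level of each of the 10 genes in FPKM (vertical axes, linear from 0 and scaled separately) in the 3 shControl and 3 shEphexin1 libraries; the marker shape gives the replicate number and the bar the mean ± SD. All 3 shEphexin1 libraries lie above all shControl libraries for EFNA5 and EFNB2 and below them for EFNA3, and replicate 2 (triangles) is the lowest library of both groups for EPHA2, EPHB4 and EFNB1.

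Among the ligands, EFNB2 had the largest difference. EFNB2 encodes ephrin-B2, a transmembrane ligand best known from arterial endothelium. It measured 1.69, 2.65 and 1.99 FPKM with shControl and 3.12, 3.59 and 3.83 FPKM with shEphexin1, so that every shEphexin1 library was above every shControl library. The means were 2.11 ± 0.492 and 3.51 ± 0.361 FPKM (SD, n = 3), a ratio of 1.66. The log2 difference was 0.73 (SE 0.199, 95% interval 0.26 to 1.19). Its limma p was 0.00744 before and 0.0744 after adjustment over all genes, so EFNB2 was not called, and the two-sided exact permutation p of 0.1 is the smallest that 3 libraries against 3 can give. Replicate 2 gave the smallest ratio, 0.42 on the log2 scale, against 0.85 in replicate 1 and 0.91 in replicate 3. From replicates 1 and 3 alone the difference was 0.88 with a limma adjusted p of 0.0249, and with a term for replicate 2 in the fit of all libraries it was 0.0127. Unlike the GC-rich member genes, EFNB2 (50% GC) was listed higher in replicate 2 than its group mean.

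EFNA5 encodes ephrin-A5, a lipid-anchored ligand of EphA receptors known for its part in axon guidance, and was the most abundant ephrin mRNA by mean level. Its values were 4.05, 5.7 and 4.18 FPKM with shControl and 6.39, 7.13 and 5.86 FPKM with shEphexin1. The groups did not overlap, although shControl replicate 2 at 5.7 FPKM came close to shEphexin1 replicate 3 at 5.86 FPKM. The means of 4.64 ± 0.919 and 6.46 ± 0.637 FPKM (SD, n = 3) stood in a ratio of 1.39, and the log2 difference was 0.48 (SE 0.173, 95% interval 0.08 to 0.88). EFNA5 was not called by limma (adjusted p = 0.15; p = 0.0257 before adjustment; exact permutation p = 0.1). From replicates 1 and 3 alone the difference was 0.56 with an adjusted p of 0.0307, and with a term for replicate 2 the adjusted p was 0.0111.

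EFNB1, the gene of the transmembrane ligand ephrin-B1 on the X chromosome, was the ligand with the largest difference in the other direction. It was at 4.53, 3.18 and 3.99 FPKM with shControl and at 3.28, 1.88 and 2.83 FPKM with shEphexin1. The groups overlapped in a single pair of libraries, with shControl replicate 2 just below shEphexin1 replicate 1. Within each replicate number the shEphexin1 library was the lower one, with log2 ratios of -0.45, -0.73 and -0.48. The means were 3.9 ± 0.676 and 2.66 ± 0.714 FPKM (SD, n = 3), and the log2 difference of -0.55 (SE 0.238, 95% interval -1.11 to 0) did not pass (limma adjusted p = 0.216). The adjusted p was 0.0169 with a term for replicate 2 and 0.0884 from replicates 1 and 3 alone.

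The remaining A-type ligands are encoded side by side on chromosome 1, in the order EFNA4, EFNA3 and EFNA1, with gaps of 9.3 and 40.3 kb between the genes. EFNA3 was at 1.32, 1.39 and 2.08 FPKM with shControl and at 1.27, 1.07 and 1.09 FPKM with shEphexin1. The groups did not overlap, but the gap between shControl replicate 1 and shEphexin1 replicate 1 was only from 1.32 to 1.27 FPKM, and the log2 difference of -0.43 (SE 0.221) had a limma adjusted p of 0.299. EFNA1, the gene of the first ephrin to be identified, was at 0.795, 0.529 and 0.745 FPKM with shControl and at 1.26, 0.566 and 0.846 FPKM with shEphexin1. Those libraries overlapped and the log2 difference was 0.28 (SE 0.309, limma adjusted p = 0.646). EFNA4 was at 2.16, 0.964 and 2.13 FPKM with shControl and at 2.4, 1.73 and 1.42 FPKM with shEphexin1, and its log2 difference of 0.12 (SE 0.34, limma adjusted p = 0.878) had the other sign, -0.21, from replicates 1 and 3 alone. The 3 neighbouring genes thus gave estimates of both signs, none of which passed the limma test. Few fragments stood behind them, roughly 8.5 to 17.5 for EFNA1 and 12.5 to 29.3 for EFNA4 in each library.

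None of the 9 tested receptor and ligand genes was called at an adjusted p of at most 0.025 with a fold of at least 2 in the limma fit, and 0 were called under any of the 21 alternatives. Over all 16020 genes tested, 1.89% were called and 3.41% passed the adjusted p at any fold. At a limma p under 0.05 before adjustment there were 0 receptors and 2 ligands (EFNA5 and EFNB2), where the share over all genes was 23.3%. Shared FPKM ranges were absent for 2 of the 9 genes in the direction of higher levels in shEphexin1, where the share over all genes was 12.8%, and for 1 gene in the direction of lower levels, where it was 15.4%. The median log2 difference was 0.19 over the 3 tested receptors (from -0.21 to 0.49) and 0.20 over the 6 ligands (from -0.55 to 0.73), beside -0.0093 over all genes tested. With a term for replicate 2, EPHA2, EFNA5, EFNB1 and EFNB2 passed the adjusted p of 0.025, all at less than 2-fold, in a fit where 21.7% of all genes passed it at any fold. From replicates 1 and 3 alone 2 members passed (EPHA2 and EFNB2), beside 10.6% of all genes. EPHA2, EFNA5, EFNB1 and EFNB2 all passed after the correction for GC content and length, an alternative chosen with the data already seen, where 25.7% of all genes with a GC value passed.

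**Figure D2:**
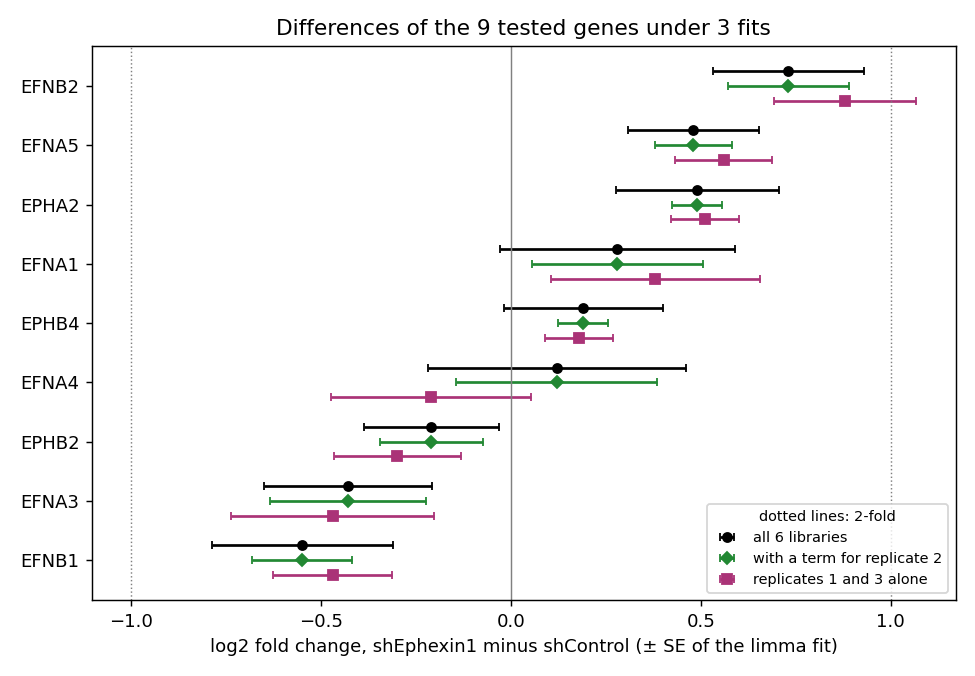
Log2 fold change of shEphexin1 minus shControl (horizontal axis, points with ± SE of the limma fit) for the 9 tested genes, from all 6 libraries, with a term for replicate 2, and from replicates 1 and 3 alone. EFNB2, EFNA5 and EPHA2 lie above 0 by more than their SE and EFNB1 below it under all 3 fits, no point reaches the dotted 2-fold lines, and EFNA4 lies on the other side of 0 from replicates 1 and 3 alone.

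FPKM is a level per transcript length, so that the receptors and the ligands can be set side by side within a library. Over the 6 libraries the order of the receptors by mean level was EPHA2 (77.3 FPKM), EPHB4 (30.9 FPKM) and EPHB2 (2.53 FPKM), and the ranges of these 3 genes did not overlap. EPHB2 overlapped with EPHA7 (1.87 FPKM), the most abundant of the family members outside the 10 genes. The ligands formed a closer series of EFNA5 (5.55 FPKM), EFNB1 (3.28 FPKM), EFNB2 (2.81 FPKM), EFNA4 (1.8 FPKM), EFNA3 (1.37 FPKM) and EFNA1 (0.79 FPKM), in which every gene overlapped with the next. The summed level of the 14 receptors was 105, 77.6 and 116 FPKM with shControl and 138, 99.2 and 151 FPKM with shEphexin1, while that of the 8 ephrins was 15.6, 15.1 and 16.7 FPKM against 18.9, 16.7 and 17.2 FPKM. H1299 cells therefore held several times more Eph receptor mRNA than ephrin mRNA on this scale in each library.

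The share of each gene in the summed FPKM of its class was compared as a description, without a test. EPHA2 made up 65.5, 63.9 and 64.4% of the receptor FPKM in shControl replicates 1, 2 and 3 and 69.1, 68.2 and 71.6% in shEphexin1. EPHB4 had 29, 28.3 and 29.6% in shControl against 26.3, 25.8 and 24.4% in shEphexin1. The shares did not overlap between the groups, and replicate 2 did not stand apart in them. Among the ligands, EFNB1 held 29, 21 and 23.9% of the ephrin FPKM with shControl and 17.4, 11.2 and 16.5% in shEphexin1, which made it the ligand with the largest share in shControl replicate 1 and the third in shEphexin1 replicate 2. EFNB2 went from 10.8, 17.5 and 11.9% to 16.5, 21.4 and 22.3%, with 1 overlap, and exceeded EFNB1 in 2 of the 3 shEphexin1 libraries but in no shControl library. Since EFNB1 was lower and EFNB2 higher, the summed B-type level was nearly level, at 6.84, 6.33 and 6.85 FPKM with shControl and 6.85, 6 and 7.44 FPKM with shEphexin1. The 5 A-type ligands summed to 8.75, 8.81 and 9.82 FPKM and to 12, 10.7 and 9.74 FPKM, respectively.

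**Figure D3:**
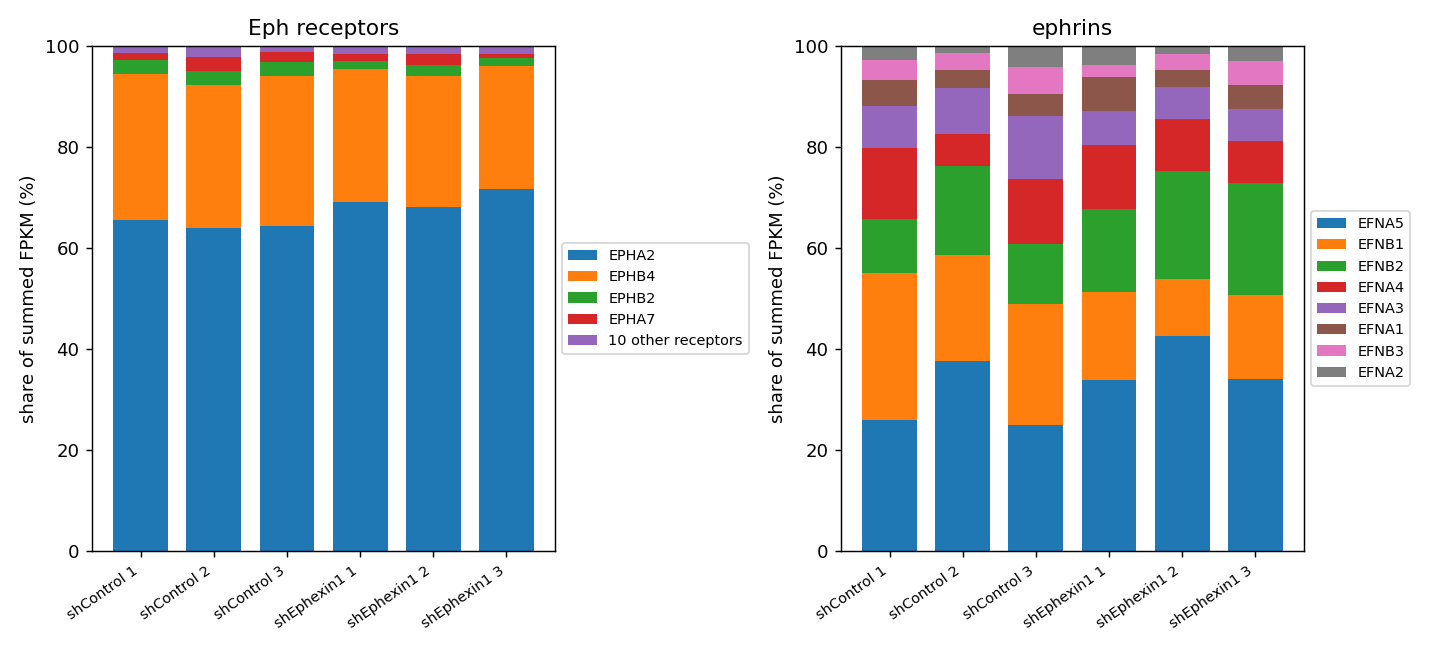
Share of each gene in the summed FPKM of the 14 Eph receptors (left) and the 8 ephrins (right), in percent, for each library. EPHA2 takes 63.9 to 65.5% of receptor FPKM with shControl and 68.2 to 71.6% in shEphexin1, and the EFNB1 segment is smaller in every shEphexin1 library than in any shControl library.

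Positions on GRCh37, the build to which the reads were mapped, allowed each gene to be set beside its neighbours. EFNB1 is a plus-strand gene of chromosome X (68048864 to 68062003), and 43 of the 47 other expressed genes within 10 Mb were also lower in shEphexin1, with a median log2 difference of -0.35. When the median of these neighbours was subtracted in each library, the EFNB1 difference was -0.17 (limma adjusted p = 0.748). EPHB4 is a minus-strand gene of chromosome 7 (100400187 to 100425145), where 108 of 137 expressed neighbours were higher in shEphexin1 with a median of 0.29, and its own difference after subtraction was -0.09. The neighbours of EFNB2, a minus-strand gene of chromosome 13 (107142093 to 107188010), had a median of 0.08, with 29 of 47 higher. Those of EFNA5, a minus-strand gene of chromosome 5 (106712595 to 107006638), had a median of 0.04, with 24 of 41 higher. For EPHA2, a minus-strand gene of chromosome 1 (16450832 to 16482564), the median was 0.09, with 88 of 143 higher. After the subtraction the differences of EFNB2, EFNA5 and EPHA2 were 0.66, 0.45 and 0.39. These did not pass either (limma adjusted p = 0.0984, 0.0939 and 0.162). EFNB1 and EPHB4 thus differed in the same direction as most genes around them, and EFNB2, EFNA5 and EPHA2 stood further above theirs; what part the neighbourhood had in any of these values was not tested.

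**Figure D4:**
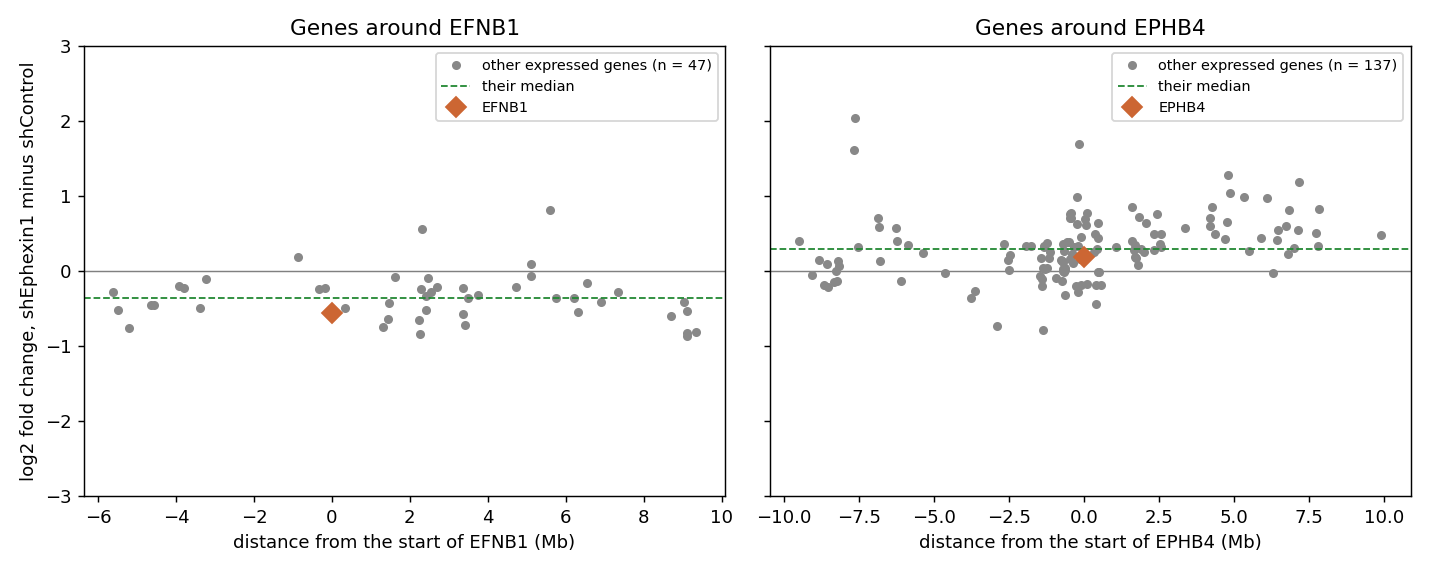
Log2 fold change of shEphexin1 minus shControl (vertical axis) of each expressed gene against its distance in Mb from the start of EFNB1 (left) or EPHB4 (right); the dashed line is the median of the neighbours and the diamond the named gene. Of the 47 genes around EFNB1, 43 lie below 0, and of the 137 around EPHB4, 108 lie above 0.

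For the 4 member genes with the largest differences, and for the ephexin gene ARHGEF16, the 250 bases before the annotated start are shown because this is the promoter sequence of the genes whose mRNA differed most. They are RefSeq sequences on GRCh38.p14, 5′ to 3′ on the strand of the gene, with matches to 4 motifs in capitals. The motifs, searched on both strands and allowed to overlap one another, were the TATA box (TATAAA), the CCAAT box (CCAAT), the GC box (GGGCGG) and the cyclic AMP response element, CRE (TGACGTCA).
EFNB2, chr13:106535663-106535912, minus strand: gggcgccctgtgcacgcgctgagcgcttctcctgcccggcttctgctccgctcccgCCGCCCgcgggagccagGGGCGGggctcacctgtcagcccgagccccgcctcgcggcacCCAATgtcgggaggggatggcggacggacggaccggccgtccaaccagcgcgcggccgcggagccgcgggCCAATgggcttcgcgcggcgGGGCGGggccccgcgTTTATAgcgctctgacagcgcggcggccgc
EFNA5, chr5:107670938-107671187, minus strand: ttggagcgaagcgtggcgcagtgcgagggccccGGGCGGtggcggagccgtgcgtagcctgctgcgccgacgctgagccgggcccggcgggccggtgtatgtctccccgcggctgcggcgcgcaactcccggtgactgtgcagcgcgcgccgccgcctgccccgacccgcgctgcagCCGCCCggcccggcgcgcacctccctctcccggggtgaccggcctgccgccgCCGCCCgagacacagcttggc
EFNB1, chrX:68828771-68829020, plus strand: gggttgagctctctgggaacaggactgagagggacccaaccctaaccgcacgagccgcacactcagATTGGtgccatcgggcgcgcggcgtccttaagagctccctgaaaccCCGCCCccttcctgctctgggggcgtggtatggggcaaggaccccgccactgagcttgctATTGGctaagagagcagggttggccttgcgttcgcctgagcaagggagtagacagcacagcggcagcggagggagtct
EPHA2, chr1:16156070-16156319, minus strand: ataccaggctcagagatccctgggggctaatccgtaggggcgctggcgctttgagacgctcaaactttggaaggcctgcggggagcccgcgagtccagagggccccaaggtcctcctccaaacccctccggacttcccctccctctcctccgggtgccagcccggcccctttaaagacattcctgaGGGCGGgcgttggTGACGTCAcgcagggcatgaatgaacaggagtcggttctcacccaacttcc
ARHGEF16, chr1:3454415-3454664, plus strand: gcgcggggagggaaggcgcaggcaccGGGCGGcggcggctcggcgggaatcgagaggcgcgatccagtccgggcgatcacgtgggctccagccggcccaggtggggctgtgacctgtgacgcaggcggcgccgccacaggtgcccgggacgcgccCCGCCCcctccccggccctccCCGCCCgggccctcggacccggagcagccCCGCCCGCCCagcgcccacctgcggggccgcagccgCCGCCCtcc
The windows of EFNB2 and EFNA5 held 40 and 41 CpG dinucleotides, and that of ARHGEF16 held 36. Those of EFNB1 and EPHA2 held 15 each, where the median over 35116 RefSeq promoter windows was 11 (quartiles 3 and 23). Each of the 5 had at least 1 GC box, with 3 in EFNB2, 3 in EFNA5 and 6 in ARHGEF16, and 42.6% of all windows had at least 1. EFNB2 had the single TATA box among them (10.7% of all windows) and shared CCAAT boxes with EFNB1, at 2 matches each (32% of all windows). A CRE was found in the EPHA2 window alone of the 5, and in 1.65% of all windows. A further motif, the AP-1 site (TGANTCA, 6.57% of all windows), had no match in the 5. Such matches describe letters and do not show that a factor binds there.

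The genes whose pattern over the 6 libraries was most like that of EFNB2 were TEKT4P2 (Pearson r = 0.9924), PCDHGB1 (r = 0.9888) and NLGN3 (r = 0.9868), among 12637 genes with a mean of at least 1 FPKM. Those most like EFNB1 were GOSR2 (r = 0.9919), TRAPPC3 (r = 0.9918) and HK2 (r = 0.9909). With 6 libraries such values are common, since 184 genes had r above 0.9 with EFNB2 and 513 with EFNB1, and all points share the library effects described above.

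Downstream of the receptors, the largest difference among the ephexins was that of ARHGEF16. This gene, also called Ephexin4 and known to bind EPHA2, was nearly silent in shControl at 0.246, 0.0789 and 0.324 FPKM and measured 3.82, 2.76 and 4.15 FPKM with shEphexin1. ARHGEF16 was called higher, with a log2 difference of 3.61 (SE 0.351, limma adjusted p = 0.00287) and means of 0.216 ± 0.125 and 3.58 ± 0.726 FPKM (SD, n = 3). Replicate 2 gave a ratio of the same size, 4 on the log2 scale, against 3.5 and 3.32 in replicates 1 and 3. The shControl values rest on only about 2.3 to 8.3 fragments, so the size of the fold depends on the pseudocount and was 1.9 on the log2 scale with 1 FPKM added and 4.17 with 0.01 FPKM. ARHGEF16 lies on the plus strand of chromosome 1 (GRCh37, 3371229 to 3397677), and the next gene, MEGF6, lies on the opposite strand 6.8 kb away with its end towards ARHGEF16. MEGF6 had the largest increase in the table, at 0.0807, 0.0115 and 0 FPKM with shControl and 7.12, 4.04 and 6.89 FPKM with shEphexin1. Whether these 2 increases have a common source was not tested, and TPRG1L and WRAP73, the next genes beyond MEGF6, were at log2 differences of 0.05 and -0.03. TP73, the gene after these, was at 1.77, 1.92 and 2.09 FPKM with shControl and 3.55, 2.4 and 3.63 FPKM with shEphexin1, without overlap (log2 difference 0.68, limma adjusted p = 0.0914).

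The other ephexins were not called. ARHGEF5 was at 0.702, 0.65 and 0.842 FPKM with shControl and at 1.18, 0.984 and 1.18 FPKM with shEphexin1, without overlap (log2 difference 0.55, limma adjusted p = 0.155), and 62 of its 68 expressed neighbours on chromosome 7 were also higher. ARHGEF26 was at 4.76, 5.2 and 4.51 FPKM with shControl and at 3.93, 4.32 and 3.76 FPKM with shEphexin1, likewise without overlap (log2 difference -0.26, limma adjusted p = 0.3). ARHGEF19, whose gene ends 41.8 kb from that of EPHA2, overlapped between the groups (log2 difference 0.34, limma adjusted p = 0.577), and ARHGEF15 was listed at 0 in all libraries. Of the 6 ephexin genes, NGEF included, 5 were tested and 1 was called, higher, where 1.89% of all genes tested were called in either direction. The groups did not overlap for 2 of the 5 with higher and 2 with lower levels in shEphexin1, beside 12.8% and 15.4% of all genes.

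**Figure D5:**
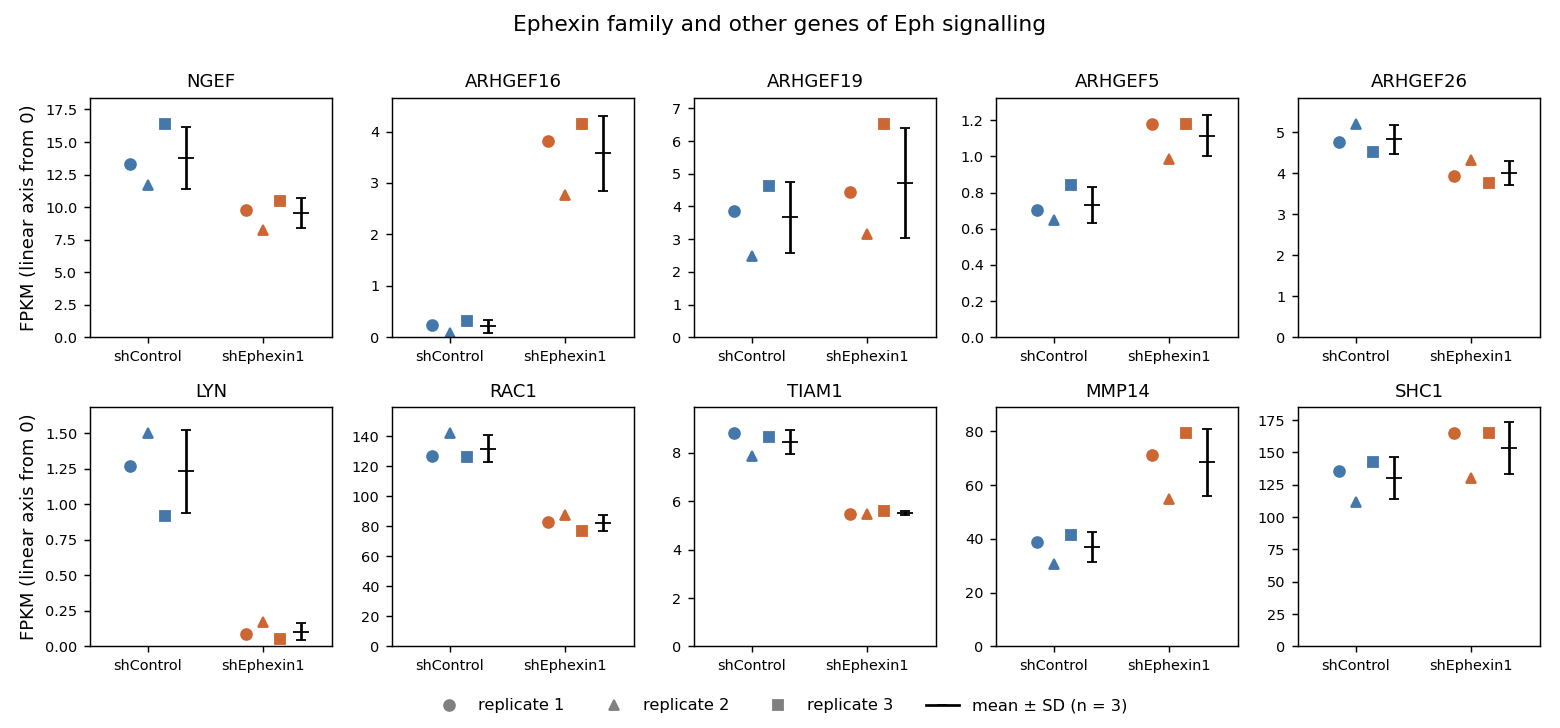
Level in FPKM (vertical axes, linear from 0 and scaled separately) of NGEF, 4 other ephexins and 5 further genes of Eph signalling in each library, with the replicate number as marker shape and the mean ± SD as bar. ARHGEF16 is below 0.4 FPKM with shControl and at 2.76 to 4.15 FPKM with shEphexin1, and LYN goes the other way, from 0.92 to 1.5 FPKM down to 0.0534 to 0.169 FPKM.

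Among the 12 other Eph receptors and ephrins, 6 were tested and 0 were called, with a median log2 difference of 0.19. None of the 6 had a limma p under 0.05 before adjustment, beside 23.3% of all genes tested. The most abundant of them, EPHA7, was at 1.58, 2.05 and 2.26 FPKM with shControl and at 1.82, 2.29 and 1.25 FPKM with shEphexin1 (log2 difference -0.16, adjusted p = 0.77). Of 23 kinases and adaptors that act at Eph receptors and ephrins, 21 were tested and 1 was called, lower, beside 1.89% of all genes tested. This was LYN, a Src family kinase, at 1.27, 1.5 and 0.92 FPKM with shControl and 0.0867, 0.169 and 0.0534 FPKM with shEphexin1. The LYN libraries lay far apart, with a log2 difference of -2.73 (SE 0.313, limma adjusted p = 0.00513). Only about 4.6, 13.1 and 2.6 fragments stood behind its shEphexin1 values. The size of its fold depends on the pseudocount and was -1.01 with 1 FPKM added and -3.56 with 0.01 FPKM. Of its 30 expressed neighbours on chromosome 8, 29 were lower, with a median of -0.45, and LYN was still at -2.24 after their median was subtracted (adjusted p = 0.00482). The adjusted p of LYN missed the threshold without shControl replicate 1 (0.0422) and without shEphexin1 replicate 1 (0.0324). SHC1, the most abundant gene of that list, had a log2 difference of 0.23 (adjusted p = 0.381).

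Among 8 genes of small GTPases and their effectors on actin, RAC1 alone passed the adjusted p, at less than 2-fold. Of all genes tested, 3.41% passed it at any fold. RAC1, a small GTPase that ephexins can activate, was at 127, 142 and 126 FPKM with shControl and 82.8, 87.3 and 76.8 FPKM with shEphexin1. The groups were well separated, and RAC1 fell by 0.68 on the log2 scale (SE 0.102, limma adjusted p = 0.0136). It lies on chromosome 7, where 61 of 65 expressed neighbours were lower with a median of -0.5, and after subtraction of that median its difference was -0.24 (adjusted p = 0.471). Leaving out 1 library gave adjusted p-values for RAC1 from 0.0164 to 0.0838, and only the fit without shEphexin1 replicate 2 passed. CFL1, the most abundant gene of the list and an actin-severing protein, had a log2 difference of -0.19 (adjusted p = 0.574).

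None of the 7 genes of receptor and ligand turnover and of the 8 tested of 10 other exchange factors and GTPase activators was called, and 3 and 1 of them had a limma p under 0.05 before adjustment, beside 23.3% of all genes. MMP14, a membrane protease that can cleave EPHA2, had the lowest adjusted p of the first list, at 38.7, 30.8 and 41.5 FPKM with shControl and 71.2, 54.8 and 79.4 FPKM with shEphexin1. The groups did not overlap, with a ratio of 1.85 and a limma adjusted p of 0.0312. From replicates 1 and 3 alone the adjusted p was 0.00341, in a fit where 10.6% of all genes passed. Leaving out 1 library gave adjusted p-values for MMP14 from 0.0163 to 0.132, and only the fit without shEphexin1 replicate 2 passed. PTPRO, a receptor tyrosine phosphatase, differed by more than 2-fold but did not pass (log2 difference -1.10, limma adjusted p = 0.0525). It was at 0.327, 0.372 and 0.342 FPKM with shControl and 0.0953, 0.134 and 0.0979 FPKM with shEphexin1. Only about 19.1 to 23.7 fragments stood behind its shControl values and 4.9 to 10.8 behind those of shEphexin1, so its size is uncertain. TIAM1, a Rac exchange factor that binds EPHA2 and ephrin-B1, had the lowest adjusted p of the second list. It was at 8.81, 7.86 and 8.63 FPKM with shControl and 5.48, 5.46 and 5.6 FPKM with shEphexin1. Its log2 difference was -0.60 (limma adjusted p = 0.0297, and 0.0138 from replicates 1 and 3 alone). With 1 library left out, its adjusted p-values ran from 0.0399 to 0.156, and none passed. RASA1, the most abundant gene of the second list, was at a log2 difference of 0.32 (adjusted p = 0.248).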

How the data were processed

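RNA-seq was performed on total RNA from 3 shControl and 3 shEphexin1 libraries of H1299 cells with a stranded kit. Reads were aligned by the authors to GRCh37/hg19 using TopHat 2.0.13, and they deposited FPKM per gene and library from Cuffdiff (Cufflinks 2.2.1), with geometric library normalization and pooled dispersion. The gene annotation, filters and strand setting of the counting are not given in the sources used here. Columns were assigned to groups by the library labels.

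Genes reaching 0.1 FPKM in 3 or more of 6 libraries were kept (16020; 10235 were left out) and log2(FPKM + 0.1) was compared with limma 3.58.1 (R 4.3.3; lmFit, eBayes with trend), and p-values were adjusted by Benjamini-Hochberg over all genes tested. The script was tested on simulated data. Calls needed an adjusted p no higher than 0.025 and a 2-fold or larger difference, the thresholds of the study. All tests were two-sided, and SE is that of the moderated fit.

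The member genes and all gene lists were chosen with earlier results of these data known. Genes named were the members, NGEF, genes of the lists that passed the adjusted p, the most abundant gene of each list, and the 3 genes most correlated with each of EFNB1 and EFNB2. The remaining ephexins, TIAM1, PTPRO, KRT8, EPCAM, MEGF6 and its neighbours were named after their values had been seen. Fragment numbers are rough estimates: in transcripts above 1000 bases, the most frequent smallest step of FPKM times length was taken as 1 fragment. Neighbours are genes with a mean of at least 1 FPKM within 10 Mb, placed with GENCODE on GRCh37. Python 3.11.15, pandas 2.3.3, scipy 1.17.1 and matplotlib 3.10.9 were used. Alternatives were other pseudocounts, filters, scalings and thresholds, eBayes without trend, a replicate block, a term for replicate 2, replicates 1 and 3 alone, each library left out, subtraction of the neighbourhood median and, chosen after seeing the data, loess correction for GC content and transcript length alone, with the block, and in replicates 1 and 3. The term for replicate 2 and the fit of replicates 1 and 3 alone set apart the replicate with a negative GC correlation in these same data.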

Additional observations from a re-analysis of the deposited data

How the results depend on the processing

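Over 21 alternatives, the direction of EPHA2, EPHB2, EFNA1, EFNA3, EFNA5, EFNB1 and EFNB2 was kept wherever the gene was tested, and no receptor or ligand gene was called. The sizes depended on single libraries: with 1 left out, the log2 difference was 0.31 (without shControl replicate 2) to 0.68 for EPHA2, 0.01 to 0.37 for EPHB4, -0.34 to -0.1 for EPHB2, 0.59 to 0.9 for EFNB2, 0.39 to 0.63 for EFNA5, -0.72 to -0.33 (without shEphexin1 replicate 2) for EFNB1, -0.54 to -0.24 (without shControl replicate 3) for EFNA3 and 0.02 (without shEphexin1 replicate 1) to 0.54 for EFNA1. 2 members changed sign. EPHB4 went to -0.09 with the neighbourhood median subtracted. EFNA4 went to -0.21 from replicates 1 and 3 alone, to -0.12 when these were also corrected for GC content and length, and, with 1 library left out, ranged from -0.24 (without shControl replicate 2) to 0.31, with -0.07 without shEphexin1 replicate 1. The number of members with an adjusted p of at most 0.025 at any fold was 0 in the limma fit used above. It was also 0 with each library left out. It was 4 with a term for replicate 2, 2 from replicates 1 and 3 alone, and 4 with the GC and length correction. With that correction and the block it was 4 (28.7% of all genes), and with that correction in replicates 1 and 3 it was 3 (20.6%). The adjusted p of EPHA2 ranged from 0.000547 to 0.496, of EFNB2 from 0.00853 to 0.254, of EFNA5 from 0.00734 to 0.414 and of EFNB1 from 0.00567 to 0.748.

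Genes called higher numbered 143 in the limma fit used above, which is not the Cuffdiff analysis of the study. They numbered 73 with a pseudocount of 1 FPKM and 57 with no filter. A term for replicate 2 gave 312, and replicates 1 and 3 alone gave 234. At an adjusted p of 0.05 there were 239. The GC and length correction gave 303, with the block 300, and in replicates 1 and 3 it gave 261. With 1 library left out there were 23 to 159. Genes called lower numbered 160 in that limma fit. They numbered 66 with a pseudocount of 1 FPKM, 105 with a filter of 1 FPKM and 252 with a term for replicate 2. With 1 library left out they numbered 37 to 157. Of the other genes of Eph signalling, 2 were called in the limma fit used above (ARHGEF16 and LYN) and 1 with no filter. There ARHGEF16 and LYN both missed the threshold (limma adjusted p = 0.0269 and 0.0259), so the gene called was neither of them. With a filter of 1 FPKM, which leaves out LYN, 1 was called, and with 1 library left out 1 to 3. Otherwise the cause was not tested.

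With replicate number as a block, 309 genes were called higher and 247 lower, and 4 members (EPHA2, EFNA5, EFNB1 and EFNB2) passed the adjusted p at any fold, as did 25.7% of all genes. NGEF passed there too (adjusted p = 0.00284). The labels do not say that equal numbers share a culture or batch. Deviations from the group means correlated at 0.0914, 0.43 and 0.328 between libraries of the same number, and each library correlated best with its own number, a hint from the data only. The depth limits EFNA1, EFNA3, EFNA4 and EPHA4 most, since few fragments stand behind their values.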
